A study of Mus musculus with 12 samples.

Results

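The genotype difference of marginal zone B cells was compared across everything the study measured, with 6 Trpm5-/- libraries set against 6 wild-type libraries and the condition kept as a block. These are all 12 libraries of the series, 2 in each of 6 groups. Cells of each genotype spent 4 h in 1 of 3 conditions: no stimulus, 10 µg/mL of the bacterial product LPS (lipopolysaccharide), or 10 µg/mL of anti-IgM, an antibody to the surface IgM of the cell. The labels give the cell type and the genotypes, and no age, sex, strain background or Cre line. They do not say if a group's 2 libraries stem from different mice or cultures, so p-values reflect only how these libraries vary, possibly for technical reasons. Nor do they say if cells of the same mice were split over the 3 conditions. If they were, the 6 libraries of a genotype, and its 3 conditions, would not be independent. Which part of Trpm5 the allele lacks is not stated in the labels.

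TRPM5 is an ion channel that opens when calcium rises inside the cell and passes monovalent cations, which depolarises the membrane. It is best known from taste cells and other chemosensory cells. Marginal zone B cells sit at the blood side of the spleen and answer quickly to microbial products through Toll-like receptors and to blood-borne antigen through the B cell receptor. Toll-like receptor 4 senses LPS, whereas binding of anti-IgM clusters B cell receptors and lets cytosolic calcium climb. Differences between genotypes that were present in unstimulated cells and again with both stimuli are described first, and those of one condition last.

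Trpm5 itself was close to the floor of the measurement. Values are in FPKM, which scales a gene's fragments by the length of its transcript and by the size of the library. Trpm5 read 0.0196 and 0.210 FPKM without stimulus, 0.434 and 0.321 with LPS and 0.0590 and 0.0241 with anti-IgM in wild-type cells, against 0.0236 and 0.0184, 0 and 0.0303, and 0 and 0 FPKM in Trpm5-/- cells. The wild-type libraries with LPS and 1 of the unstimulated ones were highest, and the genotypes overlapped without stimulus. The mean was 0.178 ± 0.173 to 0.0121 ± 0.0137 FPKM (SD, n = 6 each), a difference with an exact permutation p of 0.0185, 2-sided, with genotype exchanged within conditions over 216 arrangements. The smallest p this design allows is 0.00926. The call was lost without Trpm5-/- unstimulated replicate 1 (exact p = 0.0556) or 2 (0.0648) and without Trpm5-/- anti-IgM replicate 1 (0.102) or 2 (0.102).

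Library sums of FPKM lay between 563461 and 805373, relative depth was 0.645 to 1.06 with wild-type unstimulated replicate 1 as the unit, and log2 values within a group correlated at r = 0.983 to 0.990 across genes. Total read numbers are not stated in the labels. Marginal zone and B cell markers were present in all 12 libraries: Cd9 at 240.5 FPKM or more, the complement receptor gene Cr2 at 33.9 FPKM or more, and Cd79a, a chain of the B cell receptor complex, at 505.5 FPKM or more. Of the markers listed for T cells, 12 of 14 stayed at or under 1 FPKM in every library, as did 8 of 12 for NK cells, 9 of 11 for neutrophils, 7 of 11 for dendritic cells, 6 of 8 for platelets and 11 of 12 for stroma and endothelium. Among them Cd3e and Thy1 of T cells, Ncr1 of NK cells, Elane of neutrophils, Clec10a of dendritic cells and Col1a1 of stroma did not pass 0.188 FPKM. Other members of these lists were present in every library: Lck of the T cell list at 13.5 to 66.2 FPKM, Zbtb46 and Bst2 of the dendritic cell list at 5.27 to 70.2 and 35.6 to 67.9 FPKM, Pecam1 of the endothelial list at 3.60 to 48.2 FPKM and Cxcr2 of the neutrophil list at 1.70 to 3.60 FPKM. Flt3 of the dendritic cell list reached 6.16 FPKM, Itgb3 of the platelet list 10.4 FPKM and Prf1 of the NK cell list 2.14 FPKM. Of the macrophage markers 7 of 15 stayed at or under 1 FPKM in every library, among them Fcgr1, listed at 0 in all 12. Hmox1 at 54.4 to 279 FPKM, Lyz2 at 5.22 to 13.5 FPKM and Cd68 at 6.60 to 11.9 FPKM were present in every library. Erythroid RNA was present, with Hba-a1 at up to 416 FPKM, and Alas2 and Car2 above 10 FPKM in all 12 libraries. Of the erythroid markers 1 of 13 stayed at or under 1 FPKM in every library.

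Of 10797 genes tested, 1505 differed between genotypes over the 3 conditions (13.9%), 946 higher (8.76%) and 559 lower (5.18%) in Trpm5-/- cells. A gene counts as called when its adjusted p (Benjamini-Hochberg) is under 0.05 in limma, fitted to log2(FPKM + 1) with terms for condition and genotype, and 3072 genes had an unadjusted p under 0.05. With quantile normalization of the libraries the split became 657 and 643. The median difference over all tested genes was 0.01 on the log2 scale. Genotype took 5.73% of the total sum of squares of the tested genes, the condition 66.7%, the combination of both 6.87% and libraries within groups 20.7%. These shares are not scaled by degrees of freedom, of which genotype has the fewest, so their sizes do not rank the terms. The larger share of the combination therefore does not show that condition-specific differences between genotypes outweigh those shared by the conditions.

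Of the 1505, 1491 had the same sign without stimulus, with LPS and with anti-IgM. The fit has 1 term for genotype and so favours genes whose difference is alike in the 3 conditions, and this share follows in large part from that selection. A stricter rule asked in addition that both Trpm5-/- libraries lie beyond both wild-type libraries, on that side, in each of the 3 conditions. It was met by 1105 genes (10.2% of those tested), 696 higher (6.45%) and 409 lower (3.79%), and these are called carried genes below. Where a carried gene is said to be separate within each condition, that follows from this rule and is no further result. Under quantile normalization 493 and 462 genes met it. Their median size was 0.30 on the log2 scale, and 78.5% were under 0.5. At least a 2-fold difference was reached by 36 carried genes (0.333% of those tested), 17 higher and 19 lower. The calls ended between Dock8 at -0.20 ± 0.06 (limma, Benjamini-Hochberg adjusted p = 0.0499) and Psmd1 at 0.12 ± 0.04 (0.05003).

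Taken one condition at a time, the same libraries gave fewer calls. Without stimulus 660 genes were called (6.11%), 481 higher (4.45%) and 179 lower (1.66%), or 442 and 277 with quantile normalization. With LPS 388 were called (3.59%), 196 higher (1.82%) and 192 lower (1.78%), or 117 and 188 with quantile normalization, and with anti-IgM 413 (3.83%), 206 (1.91%) and 207 (1.92%). Leaving out any 1 of a condition's own 4 libraries took these counts to between 160 and 273 without stimulus, 158 and 208 with LPS, and 117 and 153 with anti-IgM. A call in all 3 conditions with 1 sign was reached by 111 genes (1.03%), 67 higher (0.621%) and 44 lower (0.408%), or 52 and 58 with quantile normalization. Leaving out 1 library took the 111 to between 58, without wild-type anti-IgM replicate 2, and 85. Of the 1105 carried genes, 495 were called in no condition taken alone, 335 in 1, 164 in 2 and 111 in all 3.

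Calls in one condition were mostly repeated in sign in the others. Among the 660 genes called without stimulus, 85.6% had the same sign with LPS and with anti-IgM. The shares were 84.8% for the 388 genes called with LPS and 86.9% for the 413 called with anti-IgM, next to 43.9% for all tested genes. The unstimulated and anti-IgM calls shared 211 genes in the same direction, 32% of the former and 51.1% of the latter. The unstimulated and LPS calls shared 159 (24.1% and 41%), and the LPS and anti-IgM calls 163 (42% and 39.5%). Across all tested genes, which are not independent replicates, the differences of 2 conditions correlated at r = 0.105 to 0.248. The 3 differences share no library, but the labels do not say if they share mice or cell preparations. Among carried genes the median size was 0.30 without stimulus, 0.28 with LPS and 0.29 with anti-IgM. A called difference of opposite sign in 2 conditions was found for 2 genes, named here after their values were seen. Bid, which promotes cell death, was at 0.25 without stimulus and -0.21 with LPS, and Ly6d, a surface protein of lymphocytes, at -0.26 with LPS and 0.28 with anti-IgM. The interaction with condition was called for neither (limma F test, adjusted p = 0.0632 for Bid and 0.0934 for Ly6d).

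**Figure D1:**
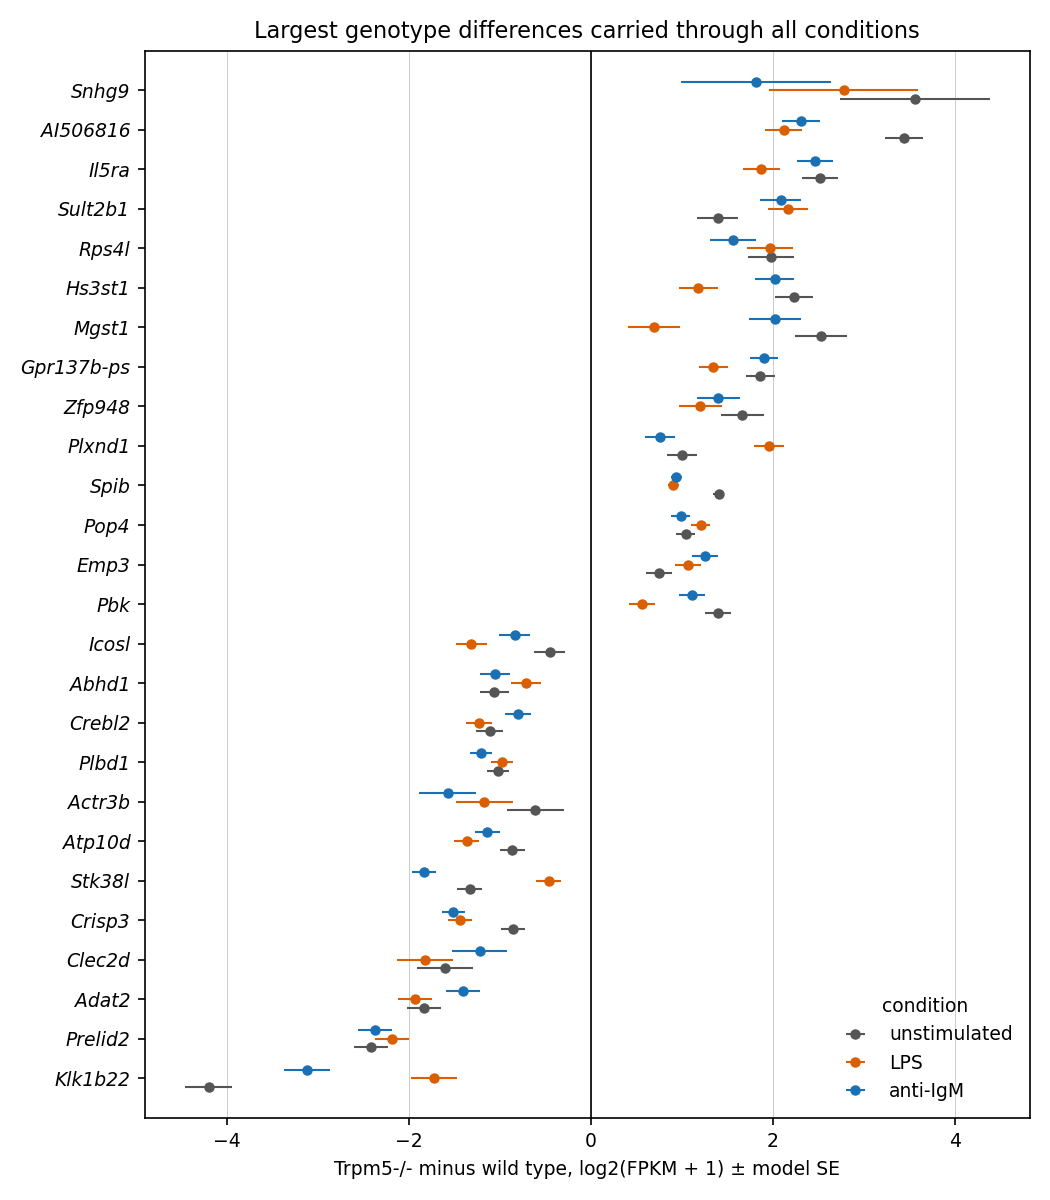
The 14 largest carried rises and 12 of the 14 largest carried falls, for genes that averaged 5 FPKM or more in the genotype with the higher level. The horizontal axis is the Trpm5-/- minus wild-type difference in log2(FPKM + 1), with 1 point for each condition and bars of ± 1 model standard error (2 libraries per group). For each gene all 3 points lie on the same side of 0, as the rule requires, and the distance between them is small for Prelid2 and Pop4 and wide for Klk1b22, Mgst1 and Plxnd1.

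The largest carried rises included a cytokine receptor chain, a lymphoid transcription factor and enzymes that add sulfate groups. Il5ra (chromosome 6, 106710357 to 106749037, mm10) encodes the ligand-binding subunit of the interleukin 5 receptor, which among B cells is best known from B1 cells and antibody-secreting cells. Il5ra read 1.29 and 0.837 FPKM without stimulus, 4.62 and 4.48 with LPS and 0.515 and 0.150 with anti-IgM in wild-type cells, against 12.3 and 9.44, 19.3 and 19.5, and 7.34 and 5.41 FPKM in Trpm5-/- cells. Every Trpm5-/- library was above every wild-type library, across conditions as well as within them, and LPS gave the highest level in either genotype. The difference was 2.29 ± 0.14 (limma, Benjamini-Hochberg adjusted p = 1.73e-06), on a scale where the added 1 FPKM understates the change of a gene this low in wild-type cells. Csf2rb, the signalling subunit that the interleukin 5 receptor shares with those for interleukin 3 and GM-CSF, rose by 0.55 ± 0.06 (adjusted p = 0.000125).

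Spib (chromosome 7, 44525993 to 44532071), a transcription factor of the ETS family best known from B cells and plasmacytoid dendritic cells, was carried at a high level. Spib read 49.3 and 49.4 FPKM without stimulus, 47.4 and 45.4 with LPS and 61.9 and 65.3 with anti-IgM in wild-type cells, against 127 and 138, 89.2 and 86.6, and 125 and 121 FPKM in Trpm5-/- cells. The lowest Trpm5-/- library stood above the highest wild-type one. The rise was 1.08 ± 0.07 (limma, Benjamini-Hochberg adjusted p = 3.46e-06). Its interaction with condition was not called (F test, adjusted p = 0.0911), although the unstimulated difference of 1.41 ± 0.06 was larger than those with LPS and anti-IgM, 0.91 ± 0.06 and 0.94 ± 0.06.

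Sult2b1, a sulfotransferase that acts on cholesterol and related sterols, was low in wild-type cells. Sult2b1 read 0.880 and 1.23 FPKM without stimulus, 0.260 and 0 with LPS and 3.32 and 1.84 with anti-IgM in wild-type cells, against 4.36 and 4.40, 4.77 and 3.41, and 14.6 and 13.2 FPKM in Trpm5-/- cells. Every Trpm5-/- library was above every wild-type one, with the top values after anti-IgM, and the rise was 1.88 ± 0.16. Hs3st1, which adds a sulfate group to heparan sulfate chains, rose by 1.81 ± 0.17. Hs3st1 read 7.08 and 8.47 FPKM without stimulus, 0.327 and 1.07 with LPS and 4.59 and 6.13 with anti-IgM in wild-type cells, against 39.96 and 40.4, 2.40 and 3.17, and 23.3 and 25.9 FPKM in Trpm5-/- cells. The level was lowest with LPS in both genotypes, and the Trpm5-/- libraries with LPS lay below the unstimulated wild-type ones, while the genotypes were separate within each condition. Mgst1, a membrane-bound glutathione transferase, rose by 1.75 ± 0.27, and was called in unstimulated cells (2.53 ± 0.29) and with anti-IgM (2.02 ± 0.29) but not with LPS (0.69 ± 0.29), with no called interaction (adjusted p = 0.209). Plxnd1, a receptor for semaphorins, rose by 1.24 ± 0.17, with 1.96 ± 0.16 under LPS, where its level was highest in both genotypes.

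Other large carried rises were in RNAs that code for no protein or whose reads may be shared. AI506816, a long noncoding RNA, read 2.30 and 2.58 FPKM without stimulus, 32.5 and 18.6 with LPS and 11.7 and 15.5 with anti-IgM in wild-type cells, against 36.4 and 36.4, 112 and 108, and 67.6 and 74.02 FPKM in Trpm5-/- cells. Its libraries did not overlap within any condition, and the rise was 2.63 ± 0.20. Snhg9, the host RNA of a small nucleolar RNA, rose by 2.72 ± 0.48, was listed at 0 in 1 of the 2 unstimulated wild-type libraries and is annotated as antisense. The cDNA kit does not mark strand, so reads from a partner on the other strand cannot be told apart. Rps4l, a copy of the ribosomal protein gene Rps4x, rose by 1.84 ± 0.15, while Rps4x stood at 0.00 ± 0.06 (adjusted p = 0.99), and the share of reads assigned to each copy is uncertain. The same limit holds for the pseudogene Gpr137b-ps, which rose by 1.70 ± 0.11.

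Zfp948, a zinc finger gene, rose by 1.42 ± 0.14, and Pop4, a protein subunit of RNase P, by 1.08 ± 0.06. Pop4 read 10.7 and 12.3 FPKM without stimulus, 16.1 and 16.97 with LPS and 14.8 and 15.9 with anti-IgM in wild-type cells, against 26.3 and 23.3, 42.8 and 36.4, and 32.1 and 30.7 FPKM in Trpm5-/- cells. The rise of Pop4 was even, with 1.04 ± 0.11, 1.21 ± 0.11 and 0.99 ± 0.11 in the 3 conditions. Emp3, a membrane protein of the PMP22 family, rose by 1.03 ± 0.10, and Pbk, a kinase of dividing cells, by 1.02 ± 0.13. Adjusted p for the 14 named rises ran from 1.73e-06 for Il5ra and Pop4 to 0.00269 for Snhg9 (limma, Benjamini-Hochberg). All 14 kept their calls under each alternative in which they were tested.

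Among the carried falls, Prelid2 (chromosome 18, 41875600 to 41951242), a member of the PRELI family of mitochondrial lipid carriers, had the smallest p of any named gene. Prelid2 read 38.8 and 36.3 FPKM without stimulus, 18.02 and 20.8 with LPS and 36.5 and 42.5 with anti-IgM in wild-type cells, against 5.74 and 6.72, 3.05 and 3.93, and 5.34 and 8.56 FPKM in Trpm5-/- cells. No Trpm5-/- library came near the lowest wild-type one, and the difference of -2.33 ± 0.10 (limma, Benjamini-Hochberg adjusted p = 2.77e-07) was -2.42 ± 0.19, -2.19 ± 0.19 and -2.38 ± 0.19 in the 3 conditions. Adat2, the catalytic part of an enzyme that edits adenosine in transfer RNAs, read 12.8 and 10.5 FPKM without stimulus, 19.7 and 21.2 with LPS and 17.3 and 14.2 with anti-IgM in wild-type cells, against 3.09 and 2.04, 5.29 and 3.97, and 4.87 and 5.77 FPKM in Trpm5-/- cells. Its fall was -1.73 ± 0.12 and every Trpm5-/- library was below every wild-type one.

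Klk1b22, a tissue kallikrein, was listed at 0 in all 6 Trpm5-/- libraries. The wild-type libraries held 18.4 and 16.6 FPKM when unstimulated, 3.47 and 1.44 after LPS and 9.17 and 6.47 after anti-IgM. No fold is given against libraries at 0, and the fitted -3.02 ± 0.32 depends on the added 1 FPKM. The kallikrein family holds many near-identical copies, so the assignment of its reads is uncertain. Clec2d, a lectin-like ligand of an inhibitory NK cell receptor, fell by 1.55 ± 0.18, and Crisp3, a secreted cysteine-rich protein, by 1.27 ± 0.11. Crisp3 read 21.2 and 22.8 FPKM without stimulus, 19.8 and 16.3 with LPS and 22.5 and 28.5 with anti-IgM in wild-type cells, against 11.9 and 11.4, 6.34 and 5.69, and 7.94 and 8.52 FPKM in Trpm5-/- cells. Every Trpm5-/- library was below every wild-type one for Crisp3.

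Stk38l, a kinase of the NDR family, fell by 1.21 ± 0.18. Stk38l read 20.8 and 17.9 FPKM without stimulus, 4.33 and 4.15 with LPS and 22.1 and 23.9 with anti-IgM in wild-type cells, against 7.16 and 6.97, 2.34 and 3.30, and 5.70 and 5.75 FPKM in Trpm5-/- cells. The level was lowest with LPS in both genotypes, and there the difference was -0.47 ± 0.14 and was not called, against -1.84 ± 0.14 with anti-IgM (interaction adjusted p = 0.0668). Atp10d, a lipid flippase that GENCODE M21 lists as a polymorphic pseudogene, fell by 1.12 ± 0.09. Plbd1, a phospholipase B-like protein, fell by 1.07 ± 0.07, Crebl2, a bZIP protein, by 1.05 ± 0.09, and Abhd1, of the hydrolase fold family, by 0.94 ± 0.10. Actr3b, related to a subunit of the Arp2/3 complex, fell by 1.12 ± 0.20, but lost its call without the 4 anti-IgM libraries (adjusted p = 0.0573).

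Among the 14 largest falls was also Icosl, a surface protein of follicular B cells and a ligand for costimulation of T cells. Icosl read 33.00 and 38.2 FPKM without stimulus, 18.1 and 13.7 with LPS and 2.57 and 3.01 with anti-IgM in wild-type cells, against 23.8 and 27.7, 4.996 and 6.58, and 1.26 and 0.988 FPKM in Trpm5-/- cells. It was lower in both Trpm5-/- libraries of each condition. Its fall over the conditions was -0.87 ± 0.14 (adjusted p = 0.00131), and its unstimulated difference alone was not called (-0.45 ± 0.17).

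Genes that mark follicular B cells were lower as a group and those that mark marginal zone B cells were not. Of 19 follicular genes tested, 13 fell and 1, Traf5, rose (in all tested genes 8.76% rose and 5.18% fell), and all 13 falls were carried. The median difference of the list was -0.34, against 0.01 for all tested genes, and it was -0.24 without stimulus, -0.29 with LPS and -0.42 with anti-IgM. Summed over the list, wild-type libraries read 2475 and 2487 FPKM without stimulus, 2157 and 2178 with LPS and 1259 and 1246 with anti-IgM. The Trpm5-/- sums were 2014 and 1951, 1577 and 1590, and 927 and 882 FPKM, below the wild-type sums in each condition. In bulk libraries fewer cells of a type and less RNA per cell cannot be told apart. Erythroid markers were lower in the same libraries, with a summed level of 442 to 809 FPKM in wild-type and 294 to 575 FPKM in Trpm5-/- libraries, and their part in the follicular difference was not tested.

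Fcer2a, the low-affinity IgE receptor CD23 whose near absence separates marginal zone from follicular cells, read 126 and 139 FPKM without stimulus, 937 and 923 with LPS and 112 and 128 with anti-IgM in wild-type cells, against 83.5 and 85.7, 560.4 and 554, and 59.9 and 53.4 FPKM in Trpm5-/- cells. It was highest with LPS in both genotypes, and within each condition the genotypes did not overlap. The fall was -0.82 ± 0.07 (limma, Benjamini-Hochberg adjusted p = 1.65e-05), with -0.64 ± 0.08, -0.74 ± 0.08 and -1.07 ± 0.08 in the 3 conditions. H2-DMb2, a chain of the chaperone that loads peptide onto MHC class II, and Fcrl1, an Fc receptor-like protein, changed by -0.51 ± 0.04 and -0.48 ± 0.04 (adjusted p = 1.63e-05 and 2.34e-05). H2-DMb2 has a close copy, H2-DMb1, and its share of reads is uncertain.

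Of 28 marginal zone genes, 7 rose (25%) and 2 fell (7.14%), against 8.76% and 5.18% of all tested genes. The share of falls was near that of all tested genes, and 1 of the 2 falls was carried. The median was 0.11. The count of rises became 4 without the 4 unstimulated or the 4 anti-IgM libraries, and that of falls 1 without any 1 of 8 libraries, the 4 unstimulated ones, replicate 1 of either genotype with LPS, wild-type anti-IgM replicate 2 and Trpm5-/- anti-IgM replicate 1. Cd9, a tetraspanin, read 269 and 284 FPKM without stimulus, 241 and 249.9 with LPS and 241 and 248 with anti-IgM in wild-type cells, against 469.9 and 472, 458 and 421, and 374 and 388 FPKM in Trpm5-/- cells. Every Trpm5-/- library was above every wild-type one, and the rise was 0.75 ± 0.04 (adjusted p = 1.16e-06). Dtx1, a regulator and target of Notch, rose by 0.38 ± 0.07. Cd81, another tetraspanin, fell by 0.37 ± 0.05. The defining markers Cr2 and Cd1d1 were not called, at -0.11 and -0.14, and neither was Notch2 (-0.14).

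Pan-B markers fell in 9 of 14 cases and rose in 1, Spib, with a median of -0.21 (5.18% fell and 8.76% rose in all tested genes). They fell in 5 cases without the 4 LPS libraries. Cd74, the invariant chain of MHC class II, read 11293 and 11762 FPKM without stimulus, 8808 and 9304 with LPS and 9556 and 9616 with anti-IgM in wild-type cells, against 9227 and 9072, 6956 and 6646, and 6705 and 7130.2 FPKM in Trpm5-/- cells. The genotypes did not overlap in any condition and the difference was -0.41 ± 0.05 (adjusted p = 0.000237), but quantile normalization ended this call (adjusted p = 0.318). Bank1, a B cell scaffold protein, and Cd37, a tetraspanin, changed by -0.38 ± 0.06 and -0.24 ± 0.04.

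**Figure D2:**
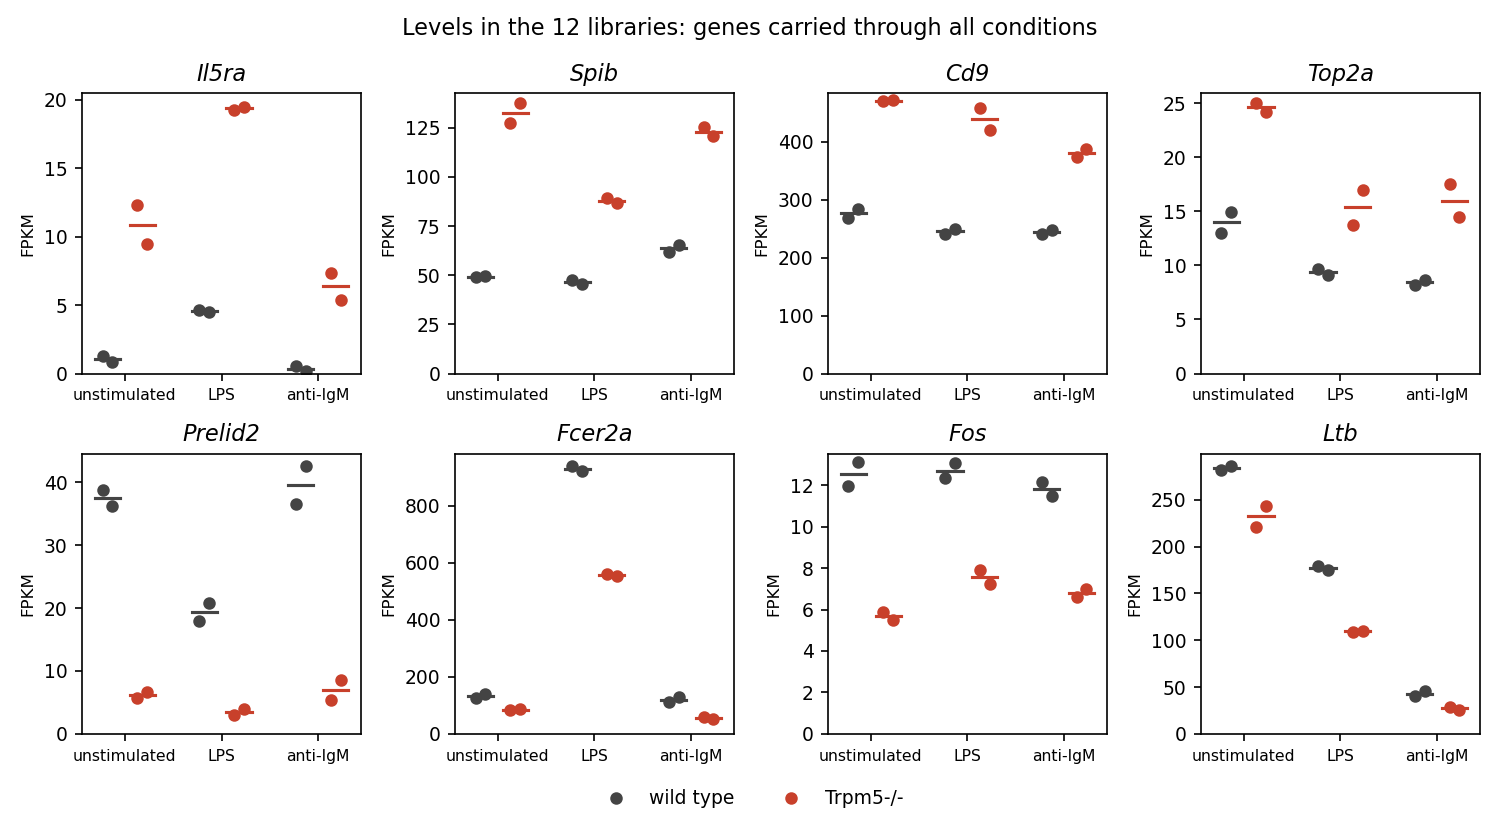
Levels of 8 carried genes in the 12 libraries, as FPKM on a linear axis from 0. Each point is 1 library, each line the mean of a group of 2, grey for wild type and red for Trpm5-/-. In each panel and condition the 2 genotypes are separate, as the carried rule requires. Il5ra, Spib, Cd9 and Top2a are higher and Prelid2, Fcer2a, Fos and Ltb lower in Trpm5-/- cells.

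Among 29 ETS and other B cell transcription factors, 4 rose (13.8%) and 7 fell (24.1%), against 8.76% and 5.18% of all tested genes. The median was -0.09. The falls numbered 4 without the 4 LPS and 3 without the 4 anti-IgM libraries, and between 3 and 4 without any 1 of Trpm5-/- unstimulated replicate 1, Trpm5-/- LPS replicate 1, wild-type anti-IgM replicate 1 or Trpm5-/- anti-IgM replicate 1 or 2. Id2, an inhibitor of E proteins, read 27.2 and 26.1 FPKM without stimulus, 137 and 144 with LPS and 39.4 and 40.6 with anti-IgM in wild-type cells, against 45.7 and 41.3, 244 and 216, and 61.3 and 60.4 FPKM in Trpm5-/- cells. Within each condition both Trpm5-/- libraries were higher, and the rise was 0.66 ± 0.04 (adjusted p = 3.46e-06). Ahr, the aryl hydrocarbon receptor, rose by 1.02 ± 0.08. Ahr read 6.72 and 5.05 FPKM without stimulus, 12.6 and 13.7 with LPS and 39.2 and 35.4 with anti-IgM in wild-type cells, against 14.2 and 15.2, 27.6 and 30.7, and 63.1 and 64.3 FPKM in Trpm5-/- cells. Wild-type cells with anti-IgM stood above unstimulated Trpm5-/- cells, and within each condition the genotypes were separate. Ets1, which restrains plasma cell differentiation, fell by 0.42 ± 0.05 and was lower in both Trpm5-/- libraries of each condition.

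In the list of the B1 and plasma cell programme 4 of 22 genes rose (18.2%) and none fell, with a median of 0.11. Of all tested genes 8.76% rose and 5.18% fell. The rises numbered 2 without the 4 unstimulated libraries. Apart from Il5ra they included Jchain, which links IgM and IgA into polymers. Jchain read 20.7 and 25.2 FPKM without stimulus, 15.6 and 13.3 with LPS and 16.4 and 17.3 with anti-IgM in wild-type cells, against 33.4 and 48.5, 24.4 and 30.02, and 41.99 and 34.8 FPKM in Trpm5-/- cells. The libraries were separate within each condition and the rise was 0.93 ± 0.10 (adjusted p = 0.000134). Xbp1 and Irf4, transcription factors of secretory cells, stood at 0.20 ± 0.04 and 0.21 ± 0.06. Irf4 lost its call under 13 of 23 alternatives, 8 of which leave out 1 library, with adjusted p from 0.00411 to 0.263.

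Of 36 receptors for cytokines and chemokines 5 rose and 8 fell (8.76% and 5.18% of all tested genes), and the falls numbered 3 without the 4 anti-IgM libraries. Besides Il5ra and Csf2rb, Il6st, the signal transducer gp130 of the interleukin 6 family, rose by 0.62 ± 0.09. Il6st read 11.3 and 15.6 FPKM without stimulus, 4.30 and 3.63 with LPS and 9.77 and 11.7 with anti-IgM in wild-type cells, against 22.8 and 22.8, 6.70 and 5.96, and 15.1 and 17.7 FPKM in Trpm5-/- cells. The genotypes were separate in each condition. Tnfrsf1b, the TNF receptor 2, rose by 0.26 ± 0.04. Of the 24 cytokines and chemokines, 4 rose and 2 fell. Ccl4, a chemokine for monocytes and T cells, read 150.4 and 147 FPKM without stimulus, 392 and 423 with LPS and 332 and 326 with anti-IgM in wild-type cells, against 246 and 211, 587 and 582, and 690.0 and 659.8 FPKM in Trpm5-/- cells. The level was higher with either stimulus in both genotypes, both Trpm5-/- libraries were higher in each condition, and the rise was 0.72 ± 0.08 (adjusted p = 8.18e-05). The neighbouring chemokine gene Ccl3 rose by 0.78 ± 0.10, with an interaction that was not called (adjusted p = 0.0632). Ltb, one of the lymphotoxin chains that organise the spleen, read 281 and 286 FPKM without stimulus, 179 and 175 with LPS and 40.4 and 45.5 with anti-IgM in wild-type cells, against 221 and 243, 109 and 109.9, and 28.9 and 25.9 FPKM in Trpm5-/- cells. It was lower in Trpm5-/- cells in each condition and fell by 0.54 ± 0.06 (adjusted p = 0.000244), while Il16 fell by 0.33 ± 0.06.

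Immediate early genes, which rise within minutes of receptor signals, fell in 10 of 25 cases and rose in 4, with a median of -0.06. Of all tested genes 5.18% fell and 8.76% rose. The rises numbered 1 without the 4 LPS libraries, and 2 with no filter on low values or without any 1 of wild-type unstimulated replicate 1, Trpm5-/- unstimulated replicate 1, wild-type LPS replicate 1, Trpm5-/- LPS replicate 1 or wild-type anti-IgM replicate 1. Fos, a subunit of the AP-1 factor, read 11.96 and 13.1 FPKM without stimulus, 12.4 and 13.1 with LPS and 12.1 and 11.5 with anti-IgM in wild-type cells, against 5.86 and 5.47, 7.93 and 7.25, and 6.60 and 6.98 FPKM in Trpm5-/- cells. The wild-type level was close in the 3 conditions, and no Trpm5-/- library reached a wild-type one. The fall was 0.80 ± 0.07 (limma, Benjamini-Hochberg adjusted p = 2.95e-05). Egr1, a zinc finger factor downstream of ERK, read 44.5 and 46.1 FPKM without stimulus, 63.05 and 62.3 with LPS and 118 and 134 with anti-IgM in wild-type cells, against 27.2 and 29.8, 34.7 and 32.8, and 87.5 and 85.8 FPKM in Trpm5-/- cells. Egr1 was highest with anti-IgM in both genotypes, the Trpm5-/- libraries were lower within each condition, and the fall was 0.68 ± 0.06 (adjusted p = 1.89e-05). Ier2 and Zfp36l1, the latter a factor of mRNA decay, fell by 0.35 ± 0.04 and 0.38 ± 0.06.

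Of 32 genes of B cell receptor signalling, 3 rose (9.4%) and 8 fell (25%), against 8.76% and 5.18% of all tested genes. The share of rises was thus near that of all tested genes. The median was -0.08, and the falls numbered 3 without the 4 unstimulated or the 4 anti-IgM libraries and 5 without the 4 LPS libraries. Quantile normalization left 1 rise and 9 falls. Cd72, an inhibitory receptor of B cells, read 310.3 and 281 FPKM without stimulus, 558 and 568 with LPS and 596 and 596 with anti-IgM in wild-type cells, against 250.4 and 254, 489.9 and 476, and 449 and 441 FPKM in Trpm5-/- cells. It was lower in both Trpm5-/- libraries of each condition and fell by 0.29 ± 0.04 (adjusted p = 0.000732). Rasgrp3, which activates RAS after diacylglycerol, fell by 0.36 ± 0.06. Ptpn6, the phosphatase SHP-1, changed by -0.28 ± 0.05 and lost its call without the anti-IgM libraries (adjusted p = 0.0697). Lilrb4a, an inhibitory receptor with a near-identical copy whose reads it may share, rose by 0.29 ± 0.05.

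Genes of TLR4 signalling were set against all tested genes, of which 8.76% rose and 5.18% fell. Of 29 members, none rose and 3 fell, Irak3, Ikbkb and Unc93b1, with differences of -0.35, -0.17 and -0.14. None of the 3 kept its call under every alternative: the adjusted p of Irak3, a brake of the pathway, ran from 0.0132 to 0.167, that of the kinase gene Ikbkb from 0.00722 to 0.0988, and that of Unc93b1, a chaperone of endosomal Toll-like receptors, from 0.0133 to 0.298. The falls numbered 1 without the 4 unstimulated libraries or any 1 of wild-type LPS replicate 1, Trpm5-/- LPS replicate 1 or 2, or Trpm5-/- anti-IgM replicate 2, and 0 without the 4 LPS or the 4 anti-IgM libraries. NF-kB targets fell in 8 of 31 cases and rose in 3, with a median of -0.10. Falls were called in 4 targets without stimulus, 2 with LPS and 12 with anti-IgM, and the differences between conditions in these counts were not tested. Tnfaip3 (A20), an inhibitor of NF-kB signals, read 26.9 and 26.6 FPKM without stimulus, 199 and 209 with LPS and 48.02 and 46.6 with anti-IgM in wild-type cells, against 23.1 and 22.4, 171 and 172, and 37.9 and 34.9 FPKM in Trpm5-/- cells. The genotypes were separate in each condition, with a fall of 0.28 ± 0.04 (adjusted p = 0.000575). Without the 4 anti-IgM libraries 3 targets fell.

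Of the interferon-stimulated genes 3 of 31 fell and none rose, against falls in 5.18% of all tested genes, with a median of 0.03. Ifi44 was near 0 in Trpm5-/- cells. Ifi44 read 3.69 and 3.50 FPKM without stimulus, 4.02 and 0.993 with LPS and 3.15 and 2.31 with anti-IgM in wild-type cells, against 0.219 and 0.428, 0.109 and 0, and 0.326 and 0 FPKM in Trpm5-/- cells. Its libraries did not overlap in any condition and its fall was 1.69 ± 0.19 (adjusted p = 0.000139). Rsad2 and Ddx58 changed by -0.32 ± 0.08 and -0.32 ± 0.08, with adjusted p of up to 0.186 and 0.19. Without wild-type anti-IgM replicate 1, Trpm5-/- anti-IgM replicate 2, the 4 unstimulated or the 4 anti-IgM libraries, 1 gene of the list fell. Ifit1, a marker of interferon exposure, was not called, at 0.28 ± 0.12 (adjusted p = 0.15).

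Other channels of the TRP family and the proteins that move calcium were looked at because TRPM5 is gated by calcium. Of 6 TRP genes tested, 2 fell, both mucolipins of endosomes and lysosomes, and none rose (5.18% and 8.76% of all tested genes). Mcoln3 read 4.67 and 4.25 FPKM without stimulus, 1.61 and 0.649 with LPS and 5.49 and 5.02 with anti-IgM in wild-type cells, against 2.30 and 0.973, 0.196 and 0.253, and 1.98 and 1.67 FPKM in Trpm5-/- cells. Its libraries were separate in each condition and it changed by -1.001 ± 0.148 (adjusted p = 0.000947). Mcoln2, next to it on chromosome 3, read 51.9 and 50.8 FPKM without stimulus, 12.5 and 10.2 with LPS and 39.1 and 44.6 with anti-IgM in wild-type cells, against 42.9 and 39.8, 7.11 and 9.28, and 30.4 and 30.04 FPKM in Trpm5-/- cells. It fell by 0.40 ± 0.07 and lost its call without the 4 anti-IgM libraries (adjusted p = 0.051). Trpm4, the channel most like TRPM5, was low and not called, at -0.24 ± 0.14 (adjusted p = 0.304).

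Among 23 genes for calcium release, entry and pumps, 3 rose (13%) and 4 fell (17.4%), against 8.76% and 5.18% of all tested genes. The median was -0.0028. The falls numbered 2 without the 4 unstimulated and 1 without the 4 anti-IgM libraries. The rises numbered 1 with quantile normalization, without the 4 unstimulated or the 4 LPS libraries, or without any 1 of wild-type unstimulated replicate 1, Trpm5-/- unstimulated replicate 1, wild-type LPS replicate 1, Trpm5-/- LPS replicate 1 or Trpm5-/- anti-IgM replicate 1. Itpr1, an inositol trisphosphate receptor and calcium release channel, read 5.65 and 5.86 FPKM without stimulus, 2.60 and 2.17 with LPS and 3.46 and 3.70 with anti-IgM in wild-type cells, against 2.35 and 2.74, 1.37 and 1.86, and 1.88 and 1.84 FPKM in Trpm5-/- cells. Both Trpm5-/- libraries were below both wild-type libraries in each condition, and the fall was 0.66 ± 0.10 (adjusted p = 0.00139). Itpr2, of the same family, was at -0.89 ± 0.13 without stimulus and -1.10 ± 0.13 with anti-IgM but overlapped with LPS (-0.13 ± 0.13), so that it was called (-0.70 ± 0.14) and not carried. Its call was lost without the 4 unstimulated or the 4 anti-IgM libraries, with adjusted p of up to 0.0948. Orai2, a subunit of a plasma membrane calcium channel, changed by -0.46 ± 0.10, with adjusted p of up to 0.0664 in the same settings. In the calcineurin and NFAT list 2 of 14 fell and none rose, Ppp3cc by 0.33 ± 0.05 and Ppp3ca by 0.26 ± 0.05, both catalytic subunits of the phosphatase. Ppp3ca lost its call without the unstimulated libraries (adjusted p = 0.0562).

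Genes of cell division had a higher median in Trpm5-/- cells in each condition. In all tested genes 8.76% rose and 5.18% fell. Of 26 mitosis genes 19 rose and none fell, 13 of them carried, and the median difference was 0.49. It was 0.67 without stimulus, 0.32 with LPS and 0.47 with anti-IgM, with 13, 5 and 4 members called in that condition. Of 32 DNA replication genes 20 rose and none fell, with a median of 0.27 and 17 of them carried. Leaving out a condition moved the counts: 9 mitosis and 4 replication genes rose without the 4 unstimulated libraries, 22 and 11 without the 4 LPS libraries, and 12 and 16 without the 4 anti-IgM libraries. The medians then stayed between 0.42 and 0.56 for mitosis and between 0.233 and 0.315 for replication. The labels do not say how the cells were isolated.

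Top2a, the topoisomerase that untangles chromosomes, read 13.05 and 14.9 FPKM without stimulus, 9.69 and 9.10 with LPS and 8.21 and 8.66 with anti-IgM in wild-type cells, against 25.1 and 24.2, 13.8 and 16.96, and 17.5 and 14.4 FPKM in Trpm5-/- cells. The level was highest without stimulus in both genotypes, and the libraries were separate within each condition. The rise was 0.76 ± 0.07 (limma, Benjamini-Hochberg adjusted p = 4.37e-05). Ube2c, a ubiquitin-conjugating enzyme that works with the anaphase-promoting complex, read 35.4 and 25.7 FPKM without stimulus, 20.9 and 19.7 with LPS and 18.6 and 16.6 with anti-IgM in wild-type cells, against 52.6 and 46.5, 34.2 and 35.2, and 35.8 and 30.4 FPKM in Trpm5-/- cells. Its rise was 0.77 ± 0.08, and the groups did not overlap within a condition. Aurkb, a kinase of chromosome segregation, and Prc1, a protein of the spindle midzone, rose by 0.69 ± 0.10 and 0.60 ± 0.07.

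Rrm2, the regulated subunit of ribonucleotide reductase, read 20.3 and 19.7 FPKM without stimulus, 13.8 and 14.3 with LPS and 9.12 and 10.3 with anti-IgM in wild-type cells, against 43.4 and 44.4, 26.2 and 24.7, and 20.4 and 20.8 FPKM in Trpm5-/- cells. Its rise of 0.97 ± 0.06 (adjusted p = 1.73e-06) was called in each condition, at 1.09 ± 0.08, 0.81 ± 0.08 and 1.01 ± 0.08. Pold1, of DNA polymerase delta, and Cdc45, of the replicative helicase, rose by 0.58 ± 0.07 and 0.59 ± 0.10. Pcna, the sliding clamp, rose by 0.20 ± 0.04, a call lost without the unstimulated libraries (adjusted p = 0.0523). Pcna read 131 and 131 FPKM without stimulus, 223 and 238 with LPS and 243 and 237 with anti-IgM in wild-type cells, against 166 and 157, 249.7 and 252, and 278 and 268 FPKM in Trpm5-/- cells. Pcna was higher with either stimulus in both genotypes, whereas Top2a and Rrm2 were lower.

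Because the mitosis genes moved together, the 250 bases before their transcription starts were read for elements known from cell-cycle promoters. RefSeq (GRCm38.p6) gave such a window for 22 of the 26 genes and for 8231 of the 10797 tested genes. The CCAAT box (CCAAT on either strand), which binds NF-Y, was present in 19 of the 22 mitosis promoters (86.4%), in 37.7% of the tested genes' promoters and in 34.5% of all 27025 promoters in the table. The cell-cycle homology region (TTTGAA on either strand) was present in 8 of 22 (36.4%), against 10.4% and 16.3%. Of 26 replication genes with a window, 16 held a CCAAT box (61.5%) and 4 the E2F letters GGCGGGAA on either strand (15.4%, against 3.68% of tested genes). Among the 547 carried rises with a window 43.1% held a CCAAT box, and among the 297 carried falls 34%. The cell-cycle homology region was present in 13.2% of those rises and 13.8% of those falls. Matches are descriptions of these letters and not measured sites, and genes of a list were chosen for their role, not drawn at random.

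Shown are the windows of the mitosis genes Top2a and Ube2c, the replication gene Rrm2, and Il5ra and Spib, both carried rises described above. They run 5′ to 3′ on the gene's own strand and end at the base before the start, and capitals mark matches, on either strand, to the CCAAT box, to the cell-cycle homology region or to the AP-1 letters given below. The E2F letters and the NF-kB and SPIB motifs were searched as well and have no match in these windows. They lie at chr11:99024190-99024439 (minus strand), chr2:164769679-164769928 (plus), chr12:24708004-24708253 (plus), chr6:106749038-106749287 (minus) and chr7:44532072-44532321 (minus).
Top2a: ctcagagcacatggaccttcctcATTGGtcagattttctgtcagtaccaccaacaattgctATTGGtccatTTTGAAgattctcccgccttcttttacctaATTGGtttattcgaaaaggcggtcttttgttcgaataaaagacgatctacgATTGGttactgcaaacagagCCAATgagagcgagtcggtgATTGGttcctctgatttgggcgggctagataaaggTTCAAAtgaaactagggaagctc
Ube2c: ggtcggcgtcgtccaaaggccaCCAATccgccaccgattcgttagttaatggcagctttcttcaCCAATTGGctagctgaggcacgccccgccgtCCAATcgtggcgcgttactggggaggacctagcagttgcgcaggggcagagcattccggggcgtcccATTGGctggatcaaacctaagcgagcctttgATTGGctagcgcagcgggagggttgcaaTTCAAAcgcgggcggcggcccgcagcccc
Rrm2: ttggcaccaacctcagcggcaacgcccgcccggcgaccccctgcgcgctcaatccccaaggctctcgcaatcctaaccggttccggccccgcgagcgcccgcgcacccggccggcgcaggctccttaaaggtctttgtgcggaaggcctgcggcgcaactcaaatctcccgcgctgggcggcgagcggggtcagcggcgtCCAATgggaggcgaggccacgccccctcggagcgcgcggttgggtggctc
Il5ra: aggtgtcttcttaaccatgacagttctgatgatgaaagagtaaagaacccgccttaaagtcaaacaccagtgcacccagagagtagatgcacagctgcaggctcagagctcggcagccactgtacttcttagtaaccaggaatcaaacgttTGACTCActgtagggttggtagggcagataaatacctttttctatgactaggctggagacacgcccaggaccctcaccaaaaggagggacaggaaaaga
Spib: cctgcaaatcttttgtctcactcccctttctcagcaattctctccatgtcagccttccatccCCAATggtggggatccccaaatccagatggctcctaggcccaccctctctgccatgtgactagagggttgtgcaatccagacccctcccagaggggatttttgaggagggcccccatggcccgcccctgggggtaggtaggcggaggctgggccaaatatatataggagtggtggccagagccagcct

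The windows hold 6 CCAAT boxes in Top2a and 6 in Ube2c, against 1 each in Rrm2 and Spib and none in Il5ra. The match in Il5ra is to TGANTCA, the letters of AP-1, which 3.92% of the tested genes' promoters hold.

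Genes of ribosome production and of protein folding were also more often higher than lower. In the ribosome biogenesis and MYC target list 18 of 32 rose and none fell, against 8.76% and 5.18% of all tested genes. The median was 0.15, but 6 rose with quantile normalization, 6 without the unstimulated and 9 without the anti-IgM libraries. Odc1, the first enzyme of polyamine synthesis and a MYC target, read 161 and 163 FPKM without stimulus, 505 and 528 with LPS and 333 and 326 with anti-IgM in wild-type cells, against 239 and 220.4, 672 and 649.7, and 431 and 389.9 FPKM in Trpm5-/- cells. It rose by 0.39 ± 0.04 (adjusted p = 9.47e-05), and the genotypes were separate in each condition. Nob1 and Rrp9, which process ribosomal RNA, rose by 0.23 ± 0.03 and 0.25 ± 0.04. Of 24 genes for folding in the endoplasmic reticulum and the unfolded protein response 8 rose and 1 fell, or 4 without the unstimulated and 3 without the anti-IgM libraries. Pdia6, a disulfide isomerase, read 111 and 113 FPKM without stimulus, 198 and 211 with LPS and 216 and 212 with anti-IgM in wild-type cells, against 162 and 160.5, 266 and 266, and 258 and 265 FPKM in Trpm5-/- cells. Its rise was 0.40 ± 0.04 (adjusted p = 5.68e-05), with no overlap in any condition. Hspa5 (BiP) and Hsp90b1, chaperones of the same compartment, rose by 0.26 ± 0.04 and 0.21 ± 0.03. A set of 20 ubiquitous genes used as a reference had 4 rises, among them Gapdh at 0.26 ± 0.04, and no fall, with a median of 0.06, and 2 rises with quantile normalization.

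Of 20 apoptosis regulators 2 rose and 3 fell, against 8.76% and 5.18% of all tested genes, or 0 and 5 with quantile normalization. No rise was called without the 4 unstimulated or the 4 anti-IgM libraries, and 1 fall without the latter. The rises numbered 1 without any 1 of 8 libraries: both wild-type unstimulated, both wild-type LPS, replicate 1 of Trpm5-/- unstimulated, wild-type anti-IgM and Trpm5-/- anti-IgM, and replicate 2 of Trpm5-/- LPS. Bcl2l1 (BCL-XL), which keeps cells alive, read 11.1 and 10.7 FPKM without stimulus, 231 and 230.3 with LPS and 25.3 and 27.5 with anti-IgM in wild-type cells, against 8.13 and 8.46, 204 and 206, and 17.8 and 17.6 FPKM in Trpm5-/- cells. It was lower in both Trpm5-/- libraries of each condition and changed by -0.36 ± 0.06 (adjusted p = 0.00144). Bcl2 and the death receptor gene Fas were called at -0.37 ± 0.09 and -0.59 ± 0.17 and overlapped in at least 1 condition. Bcl2 lost its call without the 4 unstimulated or the 4 anti-IgM libraries (adjusted p of up to 0.207), and Fas under 12 of 23 alternatives (up to 0.232).

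**Figure D3:**
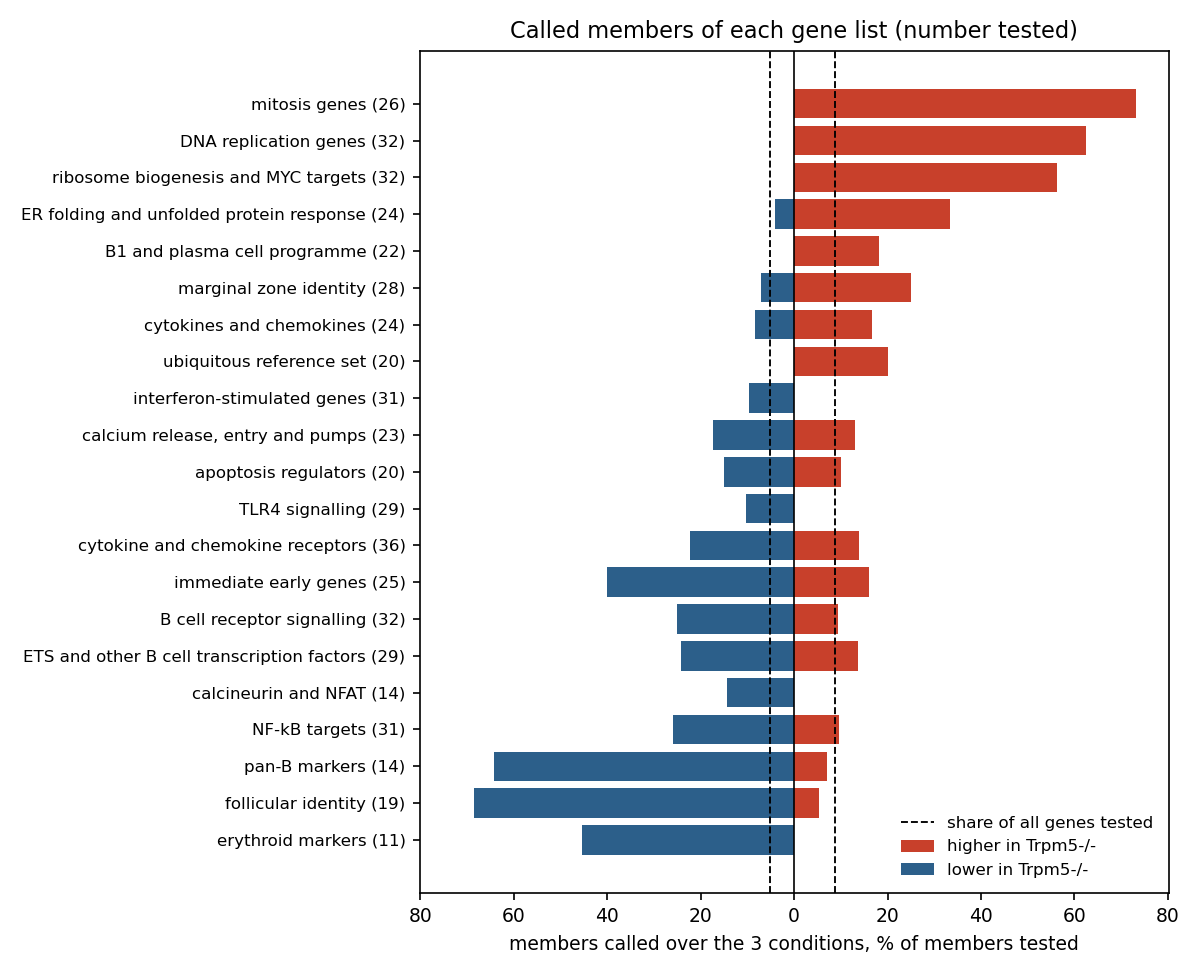
Share of the tested members of each gene list called higher (red, to the right) or lower (blue, to the left) in Trpm5-/- cells over the 3 conditions, in percent, with the number tested in brackets. The dashed lines mark the shares over all genes tested, 8.76% higher and 5.18% lower. Mitosis, replication and ribosome lists reach 73.1%, 62.5% and 56.2% to the right, and follicular, pan-B and erythroid lists 68.4%, 64.3% and 45.5% to the left.

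Erythroid markers were lower in Trpm5-/- cells, the same direction as the follicular and pan-B falls above. Of 11 tested, 5 fell and none rose, or 3 without the 4 LPS libraries, with a median of -0.46. Falls made up 5.18% and rises 8.76% of all tested genes. The sum of the erythroid list was 809 and 771 FPKM without stimulus, 518 and 615 with LPS and 593 and 442 with anti-IgM in wild-type cells. It was 534 and 575, 321 and 322, and 294 and 345 FPKM in Trpm5-/- cells, lower in each condition. None of the markers of the list was at 0 in all libraries. Car2, a carbonic anhydrase, read 65.6 and 56.7 FPKM without stimulus, 48.1 and 53.7 with LPS and 47.2 and 40.9 with anti-IgM in wild-type cells, against 40.7 and 42.3, 37.7 and 35.9, and 30.2 and 24.9 FPKM in Trpm5-/- cells, a fall of 0.55 ± 0.06 (adjusted p = 0.000167). Bpgm, an enzyme of red cell glycolysis, and Alas2, of heme synthesis, changed by -0.62 ± 0.10 and -0.42 ± 0.09, and the call of Alas2 was lost without the LPS or the anti-IgM libraries (adjusted p of up to 0.0758). The part of erythroid RNA in the other differences was not tested.

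Of the macrophage list 1 of 7 tested markers rose, Hmox1, and 1 fell, C1qb (8.76% and 5.18% of all tested genes). The rises numbered 2 without wild-type unstimulated replicate 1 or either unstimulated Trpm5-/- library. Hmox1, which breaks down heme, read 57.3 and 54.4 FPKM without stimulus, 125 and 164 with LPS and 73.9 and 79.6 with anti-IgM in wild-type cells, against 105 and 103, 268 and 279, and 137 and 146 FPKM in Trpm5-/- cells. Its rise was 0.90 ± 0.06 (adjusted p = 3.31e-06), and it is the largest part of the list's sum, which was 86.8 to 183 FPKM in wild-type and 129 to 303 FPKM in Trpm5-/- libraries. The complement gene C1qb, typical of macrophages, read 0.943, 1.43 and 2.68 FPKM (lowest, median and highest of 6) in wild-type and 0.387, 0.643 and 0.809 FPKM in Trpm5-/- libraries, and fell by 0.69 ± 0.13, a call lost without the 4 LPS libraries (adjusted p = 0.0542). Lyz2 was not called, at 0.54 ± 0.17. No marker of T cells (2 tested), NK cells (2), neutrophils (2), dendritic cells (4), platelets (1) or stroma (1) was called by limma over the 3 conditions. Of these, Pecam1, on endothelium and also on B cells, was at -0.24 ± 0.11 (adjusted p = 0.155) and Lck at -0.14 ± 0.05. Of 3 RNAs watched as signs of RNA quality, the nuclear RNA Malat1 fell by 0.32 ± 0.07, and Neat1 and Rpph1 stood at -0.20 ± 0.10 and 0.21 ± 0.21. Malat1 lost its call without the unstimulated or the anti-IgM libraries (adjusted p of up to 0.105).

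Carried genes were not spread evenly over the genome. They made up 15% of the tested genes of chromosome 17 (86 of 573), 13.8% of chromosome 6 (68 of 493) and 13.8% of chromosome 18 (35 of 253), against 10.2% overall and 7.77% on chromosome 8. Of the 36 carried genes with at least a 2-fold difference (0.333% of all tested), 9 lie on chromosome 6, with 493 tested genes. Chromosome 17, with 573 tested, holds 6, and chromosome 7, with 814 tested, holds 5. Carried genes made up 9.21% of the tested genes of chromosome 7 (75 of 814), below the overall share. On chromosome 7 the bin from 40 to 50 Mb held 22 carried genes among 91 tested (24.2%), with Spib, Sult2b1, Emp3 and Klk1b22 among them. On chromosome 6 the bins from 120 to 130 and from 130 to 140 Mb held 19 of 69 (27.5%) and 9 of 28 (32.1%). They include Clec2d, Crebl2, Plbd1 and Mgst1, and rises and falls lie side by side there. Mcoln2 and Mcoln3 lie at 140 to 150 Mb of chromosome 3, where 5 of 26 were carried (19.2%), and Ifi44 in the next bin, where 7 of 22 were (31.8%). These shares are descriptions, and no test of position was run.

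Trpm5 lies on chromosome 7 from 143069153 to 143094642. Of the 50 tested genes within 2 Mb of it 3 were higher and 5 lower (16%, against 13.9% overall), and within 10 Mb 11.9% of 84 were called. The nearest called gene, Cd81, ends 0.0012 Mb from Trpm5. Cd81 read 243 and 254 FPKM without stimulus, 341 and 364 with LPS and 192 and 166 with anti-IgM in wild-type cells, against 213 and 204, 249 and 238, and 144 and 140.1 FPKM in Trpm5-/- cells. It was lower in Trpm5-/- cells in each condition. Tspan32, also a tetraspanin, 0.0495 Mb from Trpm5, fell by 0.51 ± 0.05 (limma, Benjamini-Hochberg adjusted p = 2.72e-05), and Lsp1, a protein of the lymphocyte cytoskeleton, changed by -0.19 ± 0.04. Tspan32 read 119 and 117 FPKM without stimulus, 33.8 and 33.9 with LPS and 42.3 and 49.2 with anti-IgM in wild-type cells, against 79.7 and 83.5, 22.5 and 23.1, and 34.8 and 31.3 FPKM in Trpm5-/- cells. Rnh1, an inhibitor of ribonucleases, and Cars, a transfer RNA synthetase, were higher, at 0.19 ± 0.04 and 0.20 ± 0.04. Lsp1 lost its call without the LPS or the anti-IgM libraries (adjusted p of up to 0.0778), Rnh1 without the anti-IgM libraries (0.0777) and Cars without the unstimulated ones (0.0861). Utf1, 3.12 Mb away, was called at 0.44 ± 0.12 and not carried, and leaving out any 1 of the 4 LPS libraries, wild-type anti-IgM replicate 1 or Trpm5-/- anti-IgM replicate 2 ended that call.

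**Figure D4:**
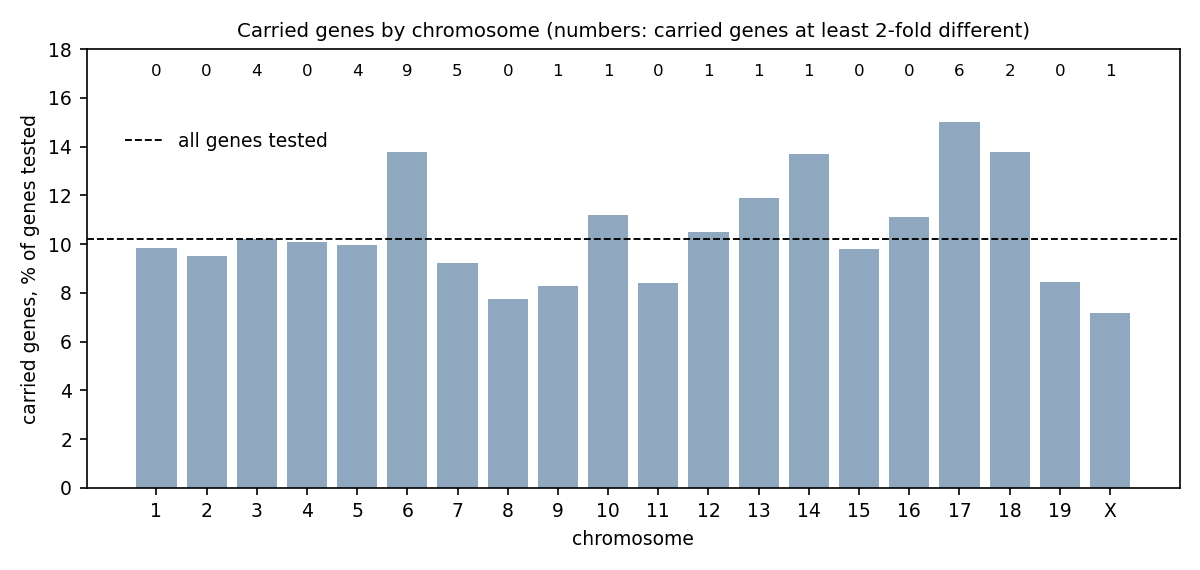
Share of the tested genes of each chromosome that were carried through all 3 conditions, in percent, with the number of carried genes of at least 2-fold difference written above each bar. The dashed line is the share over all tested genes, 10.2%. Chromosomes 17, 6, 18 and 14 stand highest, from 13.7% to 15%, and chromosome X lowest, at 7.16%. Chromosome Y, with 4 tested genes, is left out.

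Few differences of one condition were called. A 2-degree-of-freedom test of the interaction between genotype and condition called 12 genes (0.111% of 10797), while 1144 had an unadjusted p under 0.05. Leaving out 1 library took this count to between 5, without either Trpm5-/- anti-IgM library, and 18, without Trpm5-/- LPS replicate 1. A gene was assigned to a condition when it was called there, not in either other condition, and its difference exceeded the mean of the other 2 by the test. This gave 3 genes without stimulus (0.0278%), 6 with LPS (0.0556%) and 1 with anti-IgM (0.00926%). These counts moved when 1 library was left out, to between 2 and 5, 2 and 14, and 0 and 2. With 2 libraries in each group, smaller differences between conditions may go undetected. These counts are therefore not comparable with the number of genes called over all 3 conditions, where all libraries of a genotype are used together.

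Lrmp, a membrane protein of the endoplasmic reticulum that binds inositol trisphosphate receptors, had the clearest difference of LPS. Lrmp read 53.2 and 51.04 FPKM without stimulus, 8.88 and 12.3 with LPS and 122 and 127 with anti-IgM in wild-type cells, against 63.3 and 66.2, 42.9 and 44.2, and 167 and 168 FPKM in Trpm5-/- cells. The wild-type libraries with LPS were far below all others, and the Trpm5-/- libraries with LPS were the next lowest. The difference was 1.96 ± 0.11 with LPS, 0.31 ± 0.11 without stimulus and 0.42 ± 0.11 with anti-IgM (limma interaction F test, adjusted p = 0.00258). The libraries were separate in the other conditions too, so Lrmp also met the carried rule, with 0.90 ± 0.22 over all 3.

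Pepd, a peptidase for dipeptides that end in proline, read 43.8 and 42.3 FPKM without stimulus, 47.4 and 40.9 with LPS and 72.1 and 71.3 with anti-IgM in wild-type cells, against 47.9 and 44.8, 80.3 and 79.6, and 83.3 and 80.05 FPKM in Trpm5-/- cells. In wild-type cells LPS left it at the unstimulated level, and in Trpm5-/- cells with LPS it stood as high as after anti-IgM. The difference was 0.85 ± 0.07 with LPS and 0.10 ± 0.07 and 0.19 ± 0.07 in the others (limma interaction F test, adjusted p = 0.0465). Gpr183, the receptor EBI2 that guides B cells in the spleen, read 61.6 and 64.9 FPKM without stimulus, 137 and 148 with LPS and 164 and 159 with anti-IgM in wild-type cells, against 56.5 and 56.3, 84.3 and 85.3, and 143 and 135 FPKM in Trpm5-/- cells. Wild-type cells were higher with either stimulus, and Trpm5-/- cells with LPS stood between, with differences of -0.74 ± 0.06 with LPS against -0.16 ± 0.06 and -0.22 ± 0.06. The contrast of LPS with the other 2 conditions was called for Gpr183 (adjusted p = 0.0221) and the interaction F test was not (adjusted p = 0.0503). Pepd and Gpr183 also met the carried rule. Without a trend in the spread (limma) neither contrast was called (adjusted p = 0.0599 for Pepd and 0.0831 for Gpr183), and with quantile normalization that of Pepd was not (0.0581). Leaving out any 1 of 6 libraries ended the contrast for both, with adjusted p of up to 0.129: either Trpm5-/- LPS library, wild-type LPS replicate 2, either wild-type anti-IgM library or Trpm5-/- anti-IgM replicate 1. Either unstimulated Trpm5-/- library did so for Gpr183 and Trpm5-/- anti-IgM replicate 2 for Pepd. The call of Pepd over the 3 conditions was lost under 8 of 23 alternatives, 3 of which leave out 1 LPS library (adjusted p of up to 0.0788).

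Shmt2, the mitochondrial enzyme that feeds 1-carbon units from serine, was higher in Trpm5-/- cells without stimulus. Shmt2 read 86.6 and 86.02 FPKM without stimulus, 259 and 258 with LPS and 216 and 221 with anti-IgM in wild-type cells, against 117 and 119, 268 and 271, and 221 and 220.1 FPKM in Trpm5-/- cells. The genotypes differed by 0.45 ± 0.04 without stimulus, by 0.06 ± 0.04 with LPS and by 0.01 ± 0.04 with anti-IgM (limma interaction F test, adjusted p = 0.0465). Each of the 12 settings that leave out 1 library ended the contrast of the unstimulated condition with the others (adjusted p of up to 0.231).

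Amd2 and Amd1, near-identical copies of the gene for a polyamine enzyme, went opposite ways with LPS. Amd2 read 21.8 and 12.5 FPKM without stimulus, 75.9 and 68.2 with LPS and 28.5 and 52.9 with anti-IgM in wild-type cells, against 14.4 and 16.3, 5.93 and 2.44, and 32.96 and 41.1 FPKM in Trpm5-/- cells. Amd1 read 14.3 and 20.2 FPKM without stimulus, 17.7 and 32.3 with LPS and 41.6 and 13.7 with anti-IgM in wild-type cells, against 25.1 and 19.2, 94.4 and 100.3, and 42.7 and 36.2 FPKM in Trpm5-/- cells. The difference with LPS was -3.90 ± 0.36 for Amd2 and 1.98 ± 0.42 for Amd1, and the share of reads of each copy is uncertain. For Amd2 the limma interaction F test gave an adjusted p of 0.0262. The limma contrast of LPS with the other 2 conditions gave an adjusted p of 0.0122. Without either wild-type LPS library the contrast of Amd2 was lost (adjusted p of up to 0.0835).

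The other genes of one condition encode small RNAs, which this cDNA protocol measures poorly, and are named after their values were seen. Mir324 and Snord33 were listed at 0 in every library but the 2 of Trpm5-/- cells with LPS, and Mir18 in every library but the 2 of wild-type cells with anti-IgM. Snora31 was listed at 0 in both unstimulated Trpm5-/- libraries and Snord16a in both unstimulated wild-type libraries.

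**Figure D5:**
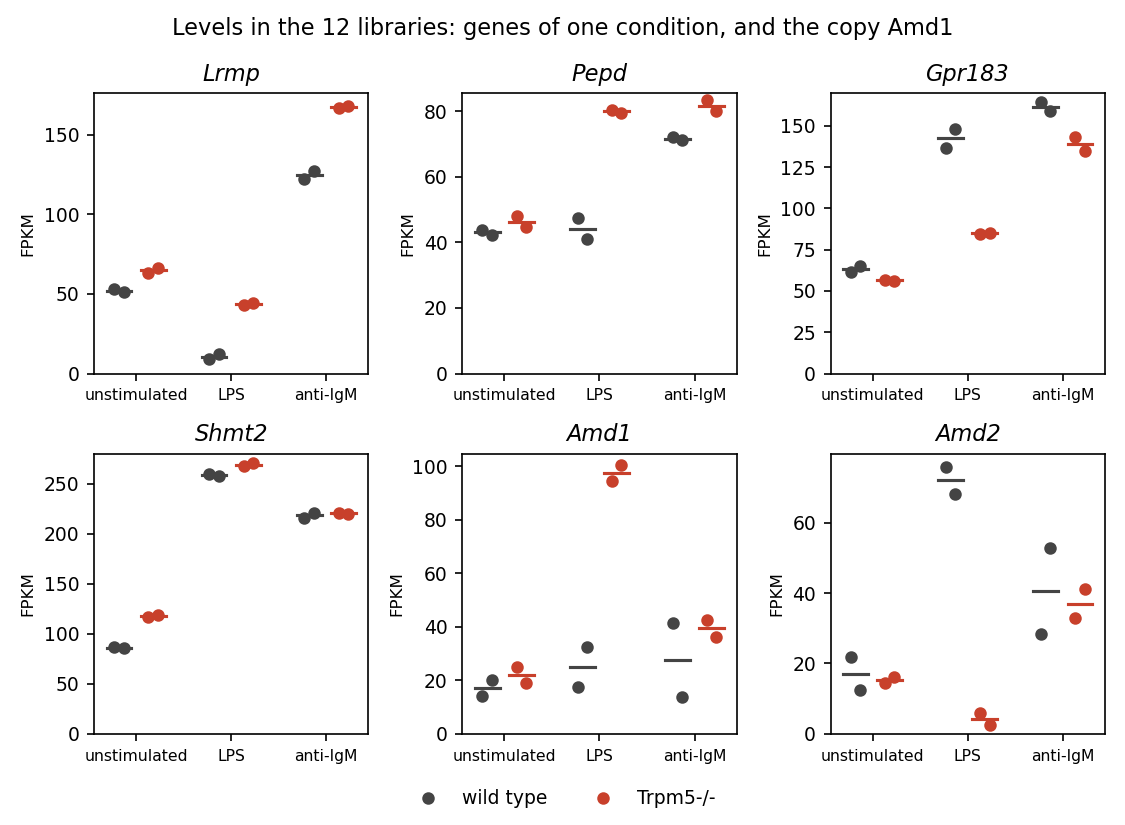
FPKM of 5 genes of one condition and of Amd1, the copy of Amd2, in the 12 libraries, on linear axes from 0. Each point is 1 library and each line the mean of 2, grey for wild type and red for Trpm5-/-. Lrmp, Pepd and Gpr183 differ most with LPS, Shmt2 without stimulus, and Amd1 and Amd2 go opposite ways with LPS.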

How the data were processed

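RNA of marginal zone B cells was made into full-length cDNA with SMART-Seq HT, which does not mark strand, and into libraries with Nextera reagents, per the labels' protocols. The authors deposited 1 table of FPKM values per library, and per the submitters' processing notes used Cufflinks 2.2.1, TopHat2 2.0.13, SAMtools 0.1.19, Bowtie2 2.2.3 and the mm10 build. The unit is not written in the deposited files and was inferred from Cufflinks and from the values, so depth is known only relative to other libraries. FPKM cannot be used in a count test, and a low gene's value rests on few fragments.

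Genes that reached 1 FPKM in 2 libraries or more were kept. On log2(FPKM + 1), limma 3.58.1 (R 4.3.3) with an empirical Bayes trend fitted condition and genotype (8 residual degrees of freedom), and a model of 6 group means (6 residual degrees of freedom) gave each condition's difference and the interaction. p-values were Benjamini-Hochberg adjusted over all genes tested, and an adjusted p under 0.05 was a call. Differences are Trpm5-/- minus wild type in log2(FPKM + 1) ± model standard error. Trpm5, below the filter, had an exact permutation test. The code was tested on simulated data.

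Named genes are the 14 largest carried rises and falls whose higher genotype averaged 5 FPKM or more, up to 3 in each direction for each condition among genes of one condition, per list the 2 to 4 members with the smallest p, and up to 6 called genes within 10 Mb of Trpm5, without predicted models, antigen receptor segments and small RNAs. Some genes that meet the rule are not reported here. Members and lists were chosen with earlier results of these data known. Positions are from GENCODE M21 (mm10), matched for 23932 of 24346 genes, 23268 by symbol and 664 by synonym. Alternatives changed the pseudocount, scaling, filter, trend, model, replicate block and libraries used, and their effect on the gene lists was added after seeing the data.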

Additional observations from a re-analysis of the deposited data

Results flagged for a closer look

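The genotype difference varied between conditions for 12 genes by limma's interaction F test with Benjamini-Hochberg adjustment, and LPS stood apart from the other 2 conditions for Gpr183 by its own contrast. Among protein-coding genes Lrmp had the smallest adjusted p, 0.00258, and was separate in all 3 conditions with its largest difference under LPS. Il4i1, a secreted amino acid oxidase, was lower in Trpm5-/- cells by 0.33 without stimulus, 0.57 with LPS and 1.03 with anti-IgM (adjusted p = 0.0172). Napsa, an aspartic protease, had differences of -0.52, -0.40 and -1.12 in the same order (adjusted p = 0.0172). Both met the carried rule, with the largest difference under anti-IgM.

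Vps37b, of the ESCRT sorting machinery, held 67.3 and 69.5 FPKM when unstimulated, 17.1 and 18.2 after LPS and 41.5 and 41.6 after anti-IgM in wild-type cells, against 44.8 and 49.2, 22.9 and 20.3, and 30.1 and 30.2 FPKM in Trpm5-/- cells. It was lower in Trpm5-/- cells without stimulus (-0.53) and with anti-IgM (-0.45) and at 0.28 with LPS (limma interaction F test, adjusted p = 0.039). Amd2 (adjusted p = 0.0262), Pepd (0.0465), Shmt2 (0.0465) and Gpr183 (0.0221 for LPS against the other 2 conditions) are described with their values above.

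The smallest adjusted p-values belonged to small RNA genes that were listed at 0 in some groups. Mir324 (2.36e-08) read 386 and 497 FPKM and Snord33 (2.49e-06) 1124 and 2893 FPKM in Trpm5-/- cells with LPS and 0 elsewhere. Mir18 (1.2e-05) read 235 and 577 FPKM in the wild-type anti-IgM libraries and 0 elsewhere. Snora31 (0.00227) and Snord16a (0.0172) were listed at 0 in both unstimulated libraries of 1 genotype. FPKM of very short genes is large per fragment, no fold is given against libraries at 0, and the cause was not tested.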

How the results depend on the processing

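Of the 110 named genes that were called, 80 kept the call under each of the 23 other settings in which they were tested, 30 lost it under 1 or more, and none changed direction. Without the 4 unstimulated libraries 715 genes were called over the conditions and 710 carried, and without the 4 anti-IgM libraries 682 and 680. These settings use fewer libraries. Without the mean-variance trend 73 genes were called in each condition, 361 without stimulus and 248 with anti-IgM, 7 had a called interaction and 1 was of the unstimulated condition alone. With no filter on low values 4 genes were of the anti-IgM condition alone. The cause was not tested for these last settings. Leaving out 1 library at a time gave 1211 to 1538 genes called over the conditions, 1040 to 1300 carried, 58 to 85 called in each condition, 160 to 632 without stimulus, 158 to 368 with LPS and 117 to 469 with anti-IgM. The interaction was then called in 5 to 18 genes, and 2 to 5, 2 to 14 and 0 to 2 genes were of the unstimulated, LPS and anti-IgM conditions alone. The Trpm5 difference ranged from -0.197 to -0.115 FPKM, with exact permutation p from 0.00926 to 0.102.

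With the replicate number as a block 1413 genes were called, 1066 carried and 9 had a called interaction. The LPS contrast of Gpr183 then had an adjusted p of 0.0518. Deviations of same-numbered libraries from their group means correlated at -0.172 to 0.199 between groups. These values span all tested genes and cannot tell if same-numbered libraries share a mouse or batch, which the labels do not say. Read depth is known only in relative terms, and 2 libraries a group limit what the interaction test can detect.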
